A study of Mus musculus with 29 samples.

Results

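Nicotinic acetylcholine receptor subunits were followed across 8 groups of cultured mouse astrocytes. The 8 members, Chrna1, Chrna3, Chrna4, Chrna5, Chrna7, Chrnb1, Chrnb2 and Chrnb4, are rows of the expression table with these gene symbols, 8 of 25239 genes. They were chosen from measured values: each was detected in the table, Chrna1 was picked for its variation between libraries, and Chrna3 and Chrnb4 were already known to be higher with Neurog2 in EGF + bFGF culture. Those values are therefore given as descriptions, without a test. The study asked whether Hmgb2, an HMG-box protein that binds chromatin, alters the conversion of astrocytes into neurons by Neurog2, a proneural transcription factor of the basic helix-loop-helix class.

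All 29 libraries came from primary astrocytes of wild-type C57BL/6J mice (cerebral cortex, P5-P6 in the protocol and P6-P8 in the design text) that had been cultured for 10 days. The growth medium held either EGF and bFGF at 10 ng/ml each (EGF + bFGF culture) or bFGF alone at 10 ng/ml (bFGF culture). Cells were transduced with MMLV-derived retroviruses that carry their insert behind the CAG promoter together with a fluorescent reporter, and the reporter-positive cells were sorted by FACS 48 h later. Control cells received the reporter virus without a transcription factor, so every group was virus-treated and sorted, and such retroviruses enter the genome of dividing cells. From EGF + bFGF culture there were 5 libraries with the control virus, 4 with Hmgb2, 3 with Neurog2 and 3 with both factors (Neurog2 + Hmgb2). The numbers for bFGF culture were 3 control, 4 with Hmgb2, 4 with Neurog2 and 3 with both. The labels do not say whether libraries of a group came from separate animals or preparations, so p-values measure only the spread between these libraries. The labels name grey matter as the tissue, whereas the methods text names white matter.

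Nicotinic receptors are pentameric cation channels of the Cys-loop family that open when acetylcholine binds. Alpha subunits carry the main face of the binding site, and beta subunits such as those encoded by Chrnb2 and Chrnb4 complete it in neurons. Chrna4 with Chrnb2 forms the main high-affinity receptor of the brain, Chrna3 with Chrnb4 the main receptor of autonomic ganglia, and Chrna7 can form channels of a single subunit type with high calcium permeability. Chrna5 is an accessory subunit that joins channels made of other subunits. Chrna1 and Chrnb1 belong to the receptor of the neuromuscular junction, where they assemble with the delta subunit and with the gamma subunit in fetal or the epsilon subunit in adult muscle. Cultured astrocytes have been described to carry nicotinic receptors, with Chrna7 the subunit most often named.

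Values are rlog values, a log2 scale from DESeq2 that pulls the differences of sparsely read genes towards 0, so a log2 difference understates the change of a low gene. No counts were analysed here and the depth of each library is unknown. The labels could be checked with the transferred genes. Neurog2 lay at 12.4 to 14.3 in the 13 libraries that received it and at 7.74 to 8.22 in the 8 controls. The 8 libraries that received Hmgb2 alone lay between the others, at 9.35 to 11.5, so their Neurog2 level was above that of every control. Hmgb2 lay at 11.5 to 13.3 with its virus and at 9.34 to 10.3 in the controls. In the libraries that received Neurog2 alone it lay at 10.5 to 10.9 in EGF + bFGF culture, above every control, and at 9.90 to 10.7 in bFGF culture. The 12 astrocyte markers averaged 9.28 to 11.3 rlog in every library, and the myogenic factors Myod1, Myog, Myf6 and Pax7 lay below 0 rlog throughout. Within groups, 9 libraries stood at one end of the main axis of variation, which held 45.4% of the within-group deviations over 15719 tested genes (mean rlog of at least 1). They were control replicates 2 and 3, Hmgb2 replicate 2 and Neurog2 + Hmgb2 replicate 2 of EGF + bFGF culture, and control replicate 2, Hmgb2 replicates 1 and 2, Neurog2 replicate 1 and Neurog2 + Hmgb2 replicate 1 of bFGF culture.

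In the mouse genome (GRCm38, GENCODE M21) Chrna5, Chrna3 and Chrnb4 lie side by side on chromosome 9. Chrna5 (ENSMUSG00000035594.10) occupies 54980880 to 55007779 on the plus strand, Chrna3 (ENSMUSG00000032303.7) 55010111 to 55026562 on the minus strand, and Chrnb4 (ENSMUSG00000035200.7) 55028154 to 55048779 on the minus strand. The gap between Chrna5 and Chrna3 measured 2331 bases, and that between Chrna3 and Chrnb4 1591 bases. The other members are scattered. Chrna1 (ENSMUSG00000027107.3) lies on chromosome 2 from 73563215 to 73580338 and Chrna4 (ENSMUSG00000027577.14) on the same chromosome from 181018380 to 181043546, both on the minus strand. Chrnb2 (ENSMUSG00000027950.7) lies on chromosome 3 from 89746195 to 89764632, Chrna7 (ENSMUSG00000030525.8) on chromosome 7 from 63098692 to 63212569, and Chrnb1 (ENSMUSG00000041189.9) on chromosome 11 from 69784036 to 69795943, all on the minus strand. The 3′ end of Chrnb2 overlaps Adar, an RNA-editing enzyme gene on the opposite strand, over 7252 bases, of which 1365 are exonic in both genes. The kit does not mark strand, so reads in that stretch cannot be assigned to either gene by strand.

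Neurog2 binds E-boxes, the hexamer CANNTG, and so do the myogenic factors that drive Chrna1 in muscle. The 250 bases before the RefSeq start of 3 members are shown for this reason, each 5′ to 3′ on the strand of the gene in GRCm38.p6, with every CANNTG in capitals. Chrna3 and Chrnb2 are shown as the members whose libraries with and without Neurog2 did not overlap in bFGF culture, and Chrna1 as the member that varied most between libraries. The windows are chr9:55026563-55026812 for Chrna3, chr3:89764633-89764882 for Chrnb2 and chr2:73580339-73580588 for Chrna1, all on the minus strand.
Chrna3: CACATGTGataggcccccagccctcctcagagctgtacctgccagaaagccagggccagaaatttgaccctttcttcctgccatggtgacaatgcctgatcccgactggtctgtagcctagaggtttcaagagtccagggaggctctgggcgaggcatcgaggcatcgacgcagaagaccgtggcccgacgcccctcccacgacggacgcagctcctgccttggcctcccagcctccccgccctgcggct
Chrnb2: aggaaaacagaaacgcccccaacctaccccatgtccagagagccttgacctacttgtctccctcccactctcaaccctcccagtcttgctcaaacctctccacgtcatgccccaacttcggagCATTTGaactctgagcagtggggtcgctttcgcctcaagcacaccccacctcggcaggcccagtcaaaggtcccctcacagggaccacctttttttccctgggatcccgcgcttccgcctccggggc
Chrna1: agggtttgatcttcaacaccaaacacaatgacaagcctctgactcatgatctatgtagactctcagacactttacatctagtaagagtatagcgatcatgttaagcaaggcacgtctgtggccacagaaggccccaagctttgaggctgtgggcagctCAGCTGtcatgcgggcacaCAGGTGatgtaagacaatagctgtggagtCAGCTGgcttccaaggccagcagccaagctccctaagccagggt
The Chrna3 window began with a pair of overlapping E-boxes, CACATG and CATGTG, at -250 and -248 from the gene start. Chrnb2 had a single CATTTG at -127, and Chrna1 had CAGCTG at -92 and -44 and CAGGTG at -73. For Chrnb4 the RefSeq window lies partly in the GENCODE first exon, and short stretches around its E-boxes (chr9:55048598-55048627 and chr9:55048545-55048570, minus strand) are shown instead, at -71 and -14.
Chrnb4, CAGGTG: acagcagcttccCAGGTGgggagcacaggc
Chrnb4, CAGCTG: cagagagactgcCAGCTGggacagac
All 8 members matched the RefSeq table, with 9 windows because Chrna5 has a pair of starts. CANNTG was present in the windows of 7 members, all but Chrna4, and in 66.2% of all 32851 windows of this length. CAGATG, searched on both strands, was in none of the members' windows and in 14.4% of all windows, and CATATG was likewise in none and in 3.5%. CAGCTG was in the windows of Chrna1 and Chrnb4 and in 13.0% of all windows. CAGGTG on either strand was in those of Chrna1, Chrna5, Chrnb1 and Chrnb4 and in 17.2% of all. These matches are letters in a window and not evidence of binding.

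All 8 members passed the level threshold, and each stayed above 1 rlog in every library. The table also held the other 8 mouse subunit genes, Chrna2, Chrna6, Chrna9, Chrna10, Chrnb3, Chrnd, Chrne and Chrng, and 0 of these reached the threshold. Their values lay between -2.35 and -0.20 in every library. Chrna6 and Chrnd lay at -2.35 to -2.34 in every library, next to the lowest value of the table. The member nearest the threshold was Chrna5, with a mean of 1.65 rlog, and the nearest gene outside it was Chrna2, with -0.57. Thus Chrna1 and Chrnb1 transcripts were present while those of the delta, gamma and epsilon subunits of the muscle receptor were near the floor.

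Per exon length (mean rlog minus log2 of the exon kilobases), Chrnb1 stood at 4.32, followed by Chrna4 at 3.51 and Chrna1 at 2.95. Chrna7 stood at 1.68, Chrnb2 at 1.56, Chrnb4 at 1.28, Chrna3 at 0.98 and Chrna5 at 0.01. The steps from Chrna7 to Chrnb2, from Chrnb2 to Chrnb4 and from Chrnb4 to Chrna3 were each smaller than the within-group SD of these genes (0.43, 0.48, 0.40 and 0.41 rlog in the order Chrna7, Chrnb2, Chrnb4 and Chrna3), so their order is not resolved. Chrna4 and Chrna1 are likewise not ordered, since Chrna1 varied within groups with an SD of 1.75 that also exceeds its distance from Chrnb1, whereas the step from Chrnb1 to Chrna4 was larger than the within-group SD of Chrnb1 (0.41) and of Chrna4 (0.66).

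Chrna3, the alpha subunit of the ganglionic receptor, separated the viruses with Neurog2 from those without it. In EGF + bFGF culture the control libraries stood at 2.50, 2.50, 2.62, 2.50 and 2.46 rlog, and the Neurog2 libraries at 3.80, 4.20 and 4.29. The Neurog2 + Hmgb2 libraries of that culture stood at 4.06, 4.21 and 5.41, and the Hmgb2 libraries at 2.43, 2.52, 2.66 and 2.58. Both groups with Neurog2 thus lay wholly above both groups without it.

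The same separation held for Chrna3 in bFGF culture. Controls read 2.62, 2.65 and 2.63, and Neurog2 libraries 3.36, 4.48, 3.67 and 4.87. Neurog2 + Hmgb2 libraries read 3.82, 4.74 and 4.98, and Hmgb2 libraries 2.93, 2.64, 2.95 and 2.69. Over both cultures the lowest of the 13 libraries with Neurog2 (3.36) was above the highest of the 16 without (2.95), and 0.286% of tested genes were separated in this way and direction. These libraries include those by which Chrna3 was known, so the separation is a description and nothing is read from that share. In bulk RNA, more cells with the transcript and more transcript per cell cannot be told apart.

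Chrnb4, which pairs with Chrna3 in the ganglionic receptor, was also higher with Neurog2. In EGF + bFGF culture it stood at 2.37, 2.56, 2.69, 2.92 and 2.79 in controls, at 4.83, 4.36 and 4.38 with Neurog2 and at 4.69, 3.09 and 3.96 with Neurog2 + Hmgb2. The Hmgb2 libraries read 2.60, 2.43, 2.57 and 2.60, within the control range. Here the Neurog2 group had the highest mean of the 8.

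In bFGF culture the Chrnb4 groups lay closer together. Controls read 2.77, 2.68 and 2.74, Neurog2 libraries 2.85, 3.85, 3.74 and 3.93, and Neurog2 + Hmgb2 libraries 2.84, 3.28 and 3.82. The Hmgb2 libraries read 2.42, 2.41, 3.23 and 2.61. The lowest library with Neurog2 (2.84) was close to the highest control (2.77), and 1 Hmgb2 library, replicate 3, was above a pair of the libraries with Neurog2.

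Chrnb2, the beta subunit of the main brain receptor, followed the same direction. The Chrnb2 controls of EGF + bFGF culture stood at 4.13, 3.99, 3.87, 4.26 and 4.10, Neurog2 libraries at 4.33, 5.25 and 5.11, and Neurog2 + Hmgb2 libraries at 5.22, 4.39 and 6.03. The Hmgb2 libraries of that culture read 4.36, 3.88, 4.42 and 4.15 and overlapped the lowest values with Neurog2.

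In bFGF culture the Chrnb2 controls stood at 4.35, 3.83 and 4.46, Neurog2 libraries at 4.70, 5.44, 4.63 and 6.03, Neurog2 + Hmgb2 libraries at 4.65, 6.09 and 5.60, and Hmgb2 libraries at 3.94, 4.17, 4.56 and 4.10. All 7 with Neurog2 were above all 7 without. Adar, the gene that overlaps Chrnb2, lay at 8.56 to 9.88 rlog with Neurog2 and at 8.58 to 9.91 without, so its groups overlapped fully. Its log2 difference between viruses with and without Neurog2 did not pass the test (adjusted p = 0.817 by limma). Chrnb2 and Adar correlated at 0.44 after group means were removed and at 0.24 with groups included. The part of Adar reads in the Chrnb2 level was not tested.

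Chrna5, the accessory subunit next to Chrna3 on chromosome 9, stayed within 1.38 to 2.03 rlog in all 29 libraries. In EGF + bFGF culture it read 1.44, 2.02, 1.83, 1.80 and 1.43 in controls and 2.03, 1.94 and 1.80 with Neurog2 + Hmgb2. The highest group means were those of Neurog2 + Hmgb2, 1.92 ± 0.12 (SD, n = 3) in EGF + bFGF culture and 1.83 ± 0.19 (n = 3) in bFGF culture, and the control range of EGF + bFGF culture covered nearly all of these values. No comparison called Chrna5 with equal library weights. At this level rlog shrinkage is strong, and a small difference in transcript number would not be seen.

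**Figure D1:**
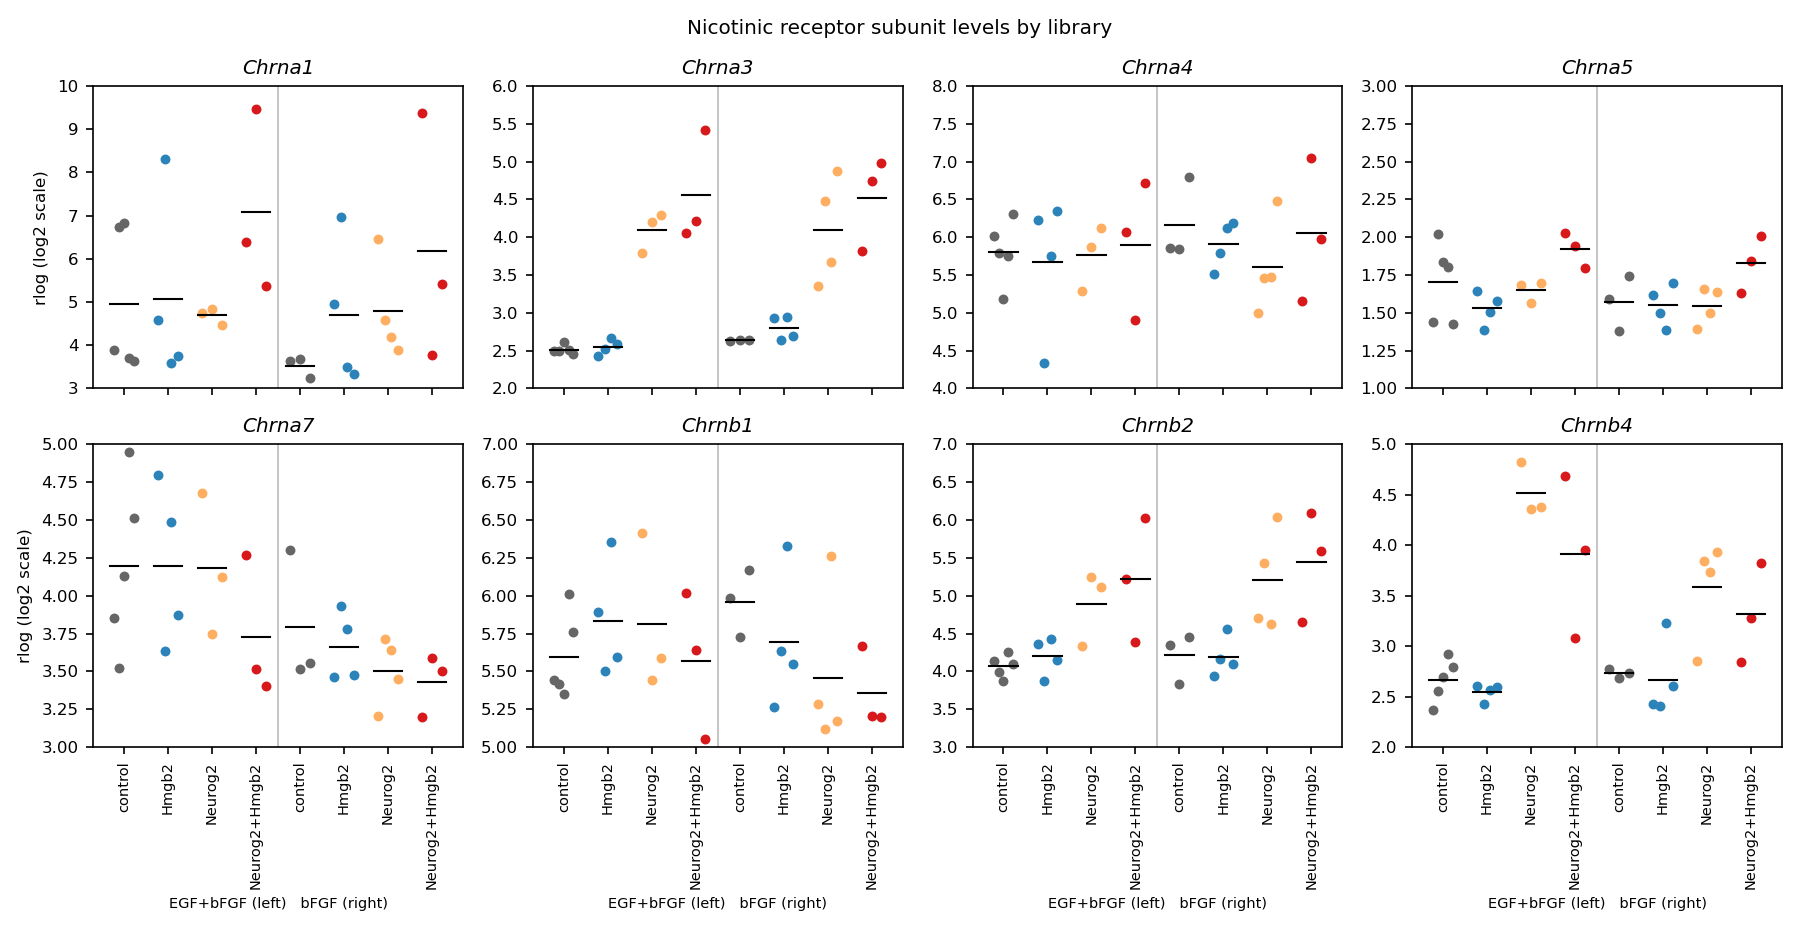
Level of each subunit (y axis, rlog, log2 scale) in each of the 29 libraries, by virus and culture, with 1 point per library and a black bar at the group mean; y axes differ between panels and do not start at 0. Chrna3 with Neurog2 lies at 3.36 to 5.41 and without Neurog2 at 2.43 to 2.95, whereas Chrna1 ranges from 3.23 to 9.47 with large differences inside groups.

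The libraries of bFGF culture were not part of the result by which Chrna3 and Chrnb4 were known, so the comparison of Neurog2 was tested there. The 7 libraries with Neurog2 (with or without Hmgb2) were set against the 7 without, in a limma fit of all 8 groups with Benjamini-Hochberg adjustment over all 15719 tested genes. This comparison was added after the data had been seen, so its p-values are not those of an independent test. Its spread was estimated from all 8 groups, and a fit of only the bFGF groups was not made for it. It called 3 members higher and 0 lower, where 2.65% of tested genes were called higher. Chrna3 was higher by 1.59 ± 0.22 (SE) on the log2 scale (adjusted p = 8.7e-05), Chrnb2 by 1.12 ± 0.25 (adjusted p = 0.0107) and Chrnb4 by 0.75 ± 0.21 (adjusted p = 0.0382). Chrna3 and Chrnb2 were higher in 7 of 7 libraries than in any of the 7 others, and 0.91% of tested genes were separated in this way. Chrna3 and Chrnb2 were called with each of the 14 libraries left out in turn, with adjusted p of 1.84e-05 to 0.000656 and of 0.00255 to 0.0494. The call of Chrnb4 was lost in 10 of these 14 fits (adjusted p 0.0109 to 0.125) and without the filter on low values (adjusted p = 0.0665).

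Within single groups the differences had the same direction and fewer calls. Neurog2 against control in EGF + bFGF culture gave log2 differences of 1.58 ± 0.29 (SE) for Chrna3, 1.86 ± 0.28 for Chrnb4 and 0.83 ± 0.34 for Chrnb2. This is the comparison that had been known, where 1.35% of all tested genes were called higher, and nothing is read from it. Chrna3 and Chrnb4 are given as descriptions in the next comparison too, since it rests on the same 5 control libraries. Neurog2 + Hmgb2 against these controls gave 2.05 ± 0.29 for Chrna3 and 1.24 ± 0.28 for Chrnb4, and 1.46% of tested genes were called higher there. Chrnb2 (1.14 ± 0.34, limma adjusted p = 0.0936) was not called in the fit of all libraries, but was called when Neurog2 + Hmgb2 replicate 2 was left out (adjusted p = 0.0191) or without the 9 libraries at one end of the main axis (0.0299).

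In bFGF culture, Neurog2 against control called Chrna3 alone, by 1.46 ± 0.31 (SE, limma adjusted p = 0.0282), where 0.337% of tested genes were called higher. Leaving out control replicate 1, 2 or 3 or Neurog2 replicate 2 or 4 raised its adjusted p to between 0.0857 and 0.146, with log2 differences of 1.20 to 1.46 in those fits. It was also not called without the filter on low values (adjusted p = 0.064), in a fit of only those groups (0.533) or without the 9 libraries at one end of the main axis (0.0541). Neurog2 + Hmgb2 against control called Chrna3 alone as well, by 1.88 ± 0.33 (adjusted p = 0.00314), where 1.03% were called higher. It was called with any of the 6 libraries left out (adjusted p 0.000706 to 0.0346) and not in a fit of only those groups (0.0963). Without Neurog2 + Hmgb2 replicate 1, Chrnb2 joined it (adjusted p = 0.0323). Chrnb4 gave differences of 0.86 ± 0.29 and 0.58 ± 0.32 in these comparisons, with adjusted p of 0.323 and 0.366.

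Averaged over both cultures and over viruses with and without Hmgb2, 3 of 8 members passed the threshold as higher with Neurog2, as did 8.54% of all tested genes. Chrna3 was higher by 1.69 ± 0.15 (SE), Chrnb4 by 1.18 ± 0.15 and Chrnb2 by 1.02 ± 0.18 on the log2 scale, corresponding to 3.23-fold, 2.27-fold and 2.03-fold on the shrunken scale. This average holds the libraries of the known comparison, so nothing is read from that count and no test is given for Chrna3 and Chrnb4. The other 5 members were not called, with differences from -0.25 for Chrna7 to 1.13 for Chrna1. The remaining members did not move together: Chrna4, Chrna7 and Chrnb1 had differences of -0.06, -0.25 and -0.22, and Chrna5 one of 0.15 (adjusted p 0.131 to 0.908).

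**Figure D2:**
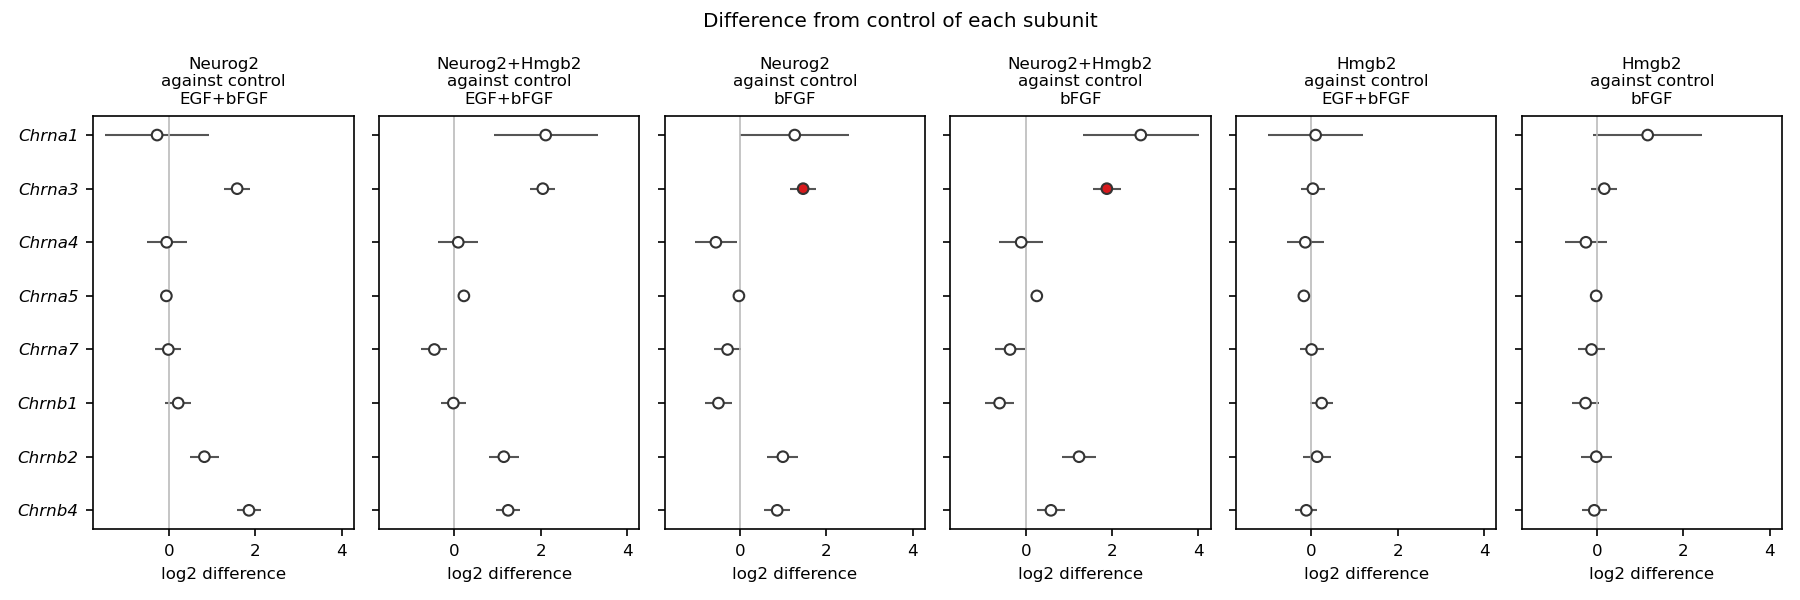
Log2 difference of each subunit from the control of its culture (x axis) with its standard error, for the 6 comparisons with control; filled points were called at an adjusted p under 0.05, and no call is shown in the 2 leftmost panels because the first result was known when the members were chosen and the second shares its controls. Chrna3 is filled in both panels of bFGF culture with Neurog2, and every point is open in the panels with Hmgb2 alone.

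Hmgb2 alone called no member in either culture. By limma, 0 of 8 members also had an unadjusted p under 0.05 there, and 2 genes of all those tested were called in EGF + bFGF culture and 1 in bFGF culture. For Chrna3 the difference from control was 0.03 with a 95% interval of -0.52 to 0.59 in EGF + bFGF culture and 0.17 (-0.47 to 0.80) in bFGF culture. For Chrnb4 the differences were -0.12 (-0.65 to 0.42) and -0.06 (-0.67 to 0.54). The intervals of EGF + bFGF culture rest on the 5 controls by which Chrna3 and Chrnb4 were known, so they are descriptions. In bFGF culture the Chrna3 difference seen with Neurog2 + Hmgb2 (1.88) lay outside the interval. Changes within the intervals cannot be told from 0 here.

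Adding Hmgb2 to Neurog2 called no member either, and 1 gene of all those tested was called in each culture. Chrna3 was 0.46 higher with both factors than with Neurog2 alone in EGF + bFGF culture (interval -0.21 to 1.14) and 0.42 higher in bFGF culture (-0.22 to 1.05). Chrnb4 was lower by contrast, with differences of -0.61 (-1.26 to 0.04) and -0.28 (-0.88 to 0.33). Neither difference was called (limma adjusted p = 0.998 in bFGF culture). The values of Chrna3 and Chrnb4 in EGF + bFGF culture use the Neurog2 libraries by which they were known, so they are descriptions. In EGF + bFGF culture Chrna1 was 2.38 ± 1.34 (SE) and Chrna5 0.27 ± 0.14 higher with both factors than with Neurog2 alone, with limma adjusted p of 0.802 for each. Over all members, 0 in EGF + bFGF culture and 1 in bFGF culture, Chrna5, had an unadjusted p under 0.05 in limma. Among all tested genes these numbers were 585 and 346. Between the controls of the cultures, 0 members were called and 0 had an unadjusted p under 0.05 in limma. Of all tested genes, 0 were called and 1009 had an unadjusted p under 0.05 there, so the absence of calls was not particular to the members. The largest member difference was that of Chrna1 (-1.44 ± 1.20, bFGF minus EGF + bFGF). The Neurog2 response of Chrnb4 was smaller in bFGF culture by 1.00 ± 0.41 on the log2 scale. It was not called, and 0 of all tested genes were called in that comparison. That of Chrna3 differed between cultures by -0.12 ± 0.42. Both differences subtract the response of EGF + bFGF culture by which these members were known, so they are descriptions without a test.

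The intermediate Neurog2 level of the Hmgb2 libraries was not accompanied by a higher level of Chrna3 than the lowest library with the Neurog2 virus. Hmgb2 replicate 2 of EGF + bFGF culture had Neurog2 at 11.5 and Chrna3 at 2.52, and Hmgb2 replicate 2 of bFGF culture had 11.0 and 2.64. The highest Chrna3 values of Hmgb2 libraries, 2.95 and 2.93, were found at Neurog2 levels of 10.8 and 9.35. Among the 13 libraries with the Neurog2 virus, the highest Neurog2 level, 14.3, went with a Chrna3 of 4.06, and the highest Chrna3, 5.41, with a Neurog2 level of 13.2. The averaged difference of Chrna3 without the 8 Hmgb2 libraries was 1.74, against 1.69 with them.

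**Figure D3:**
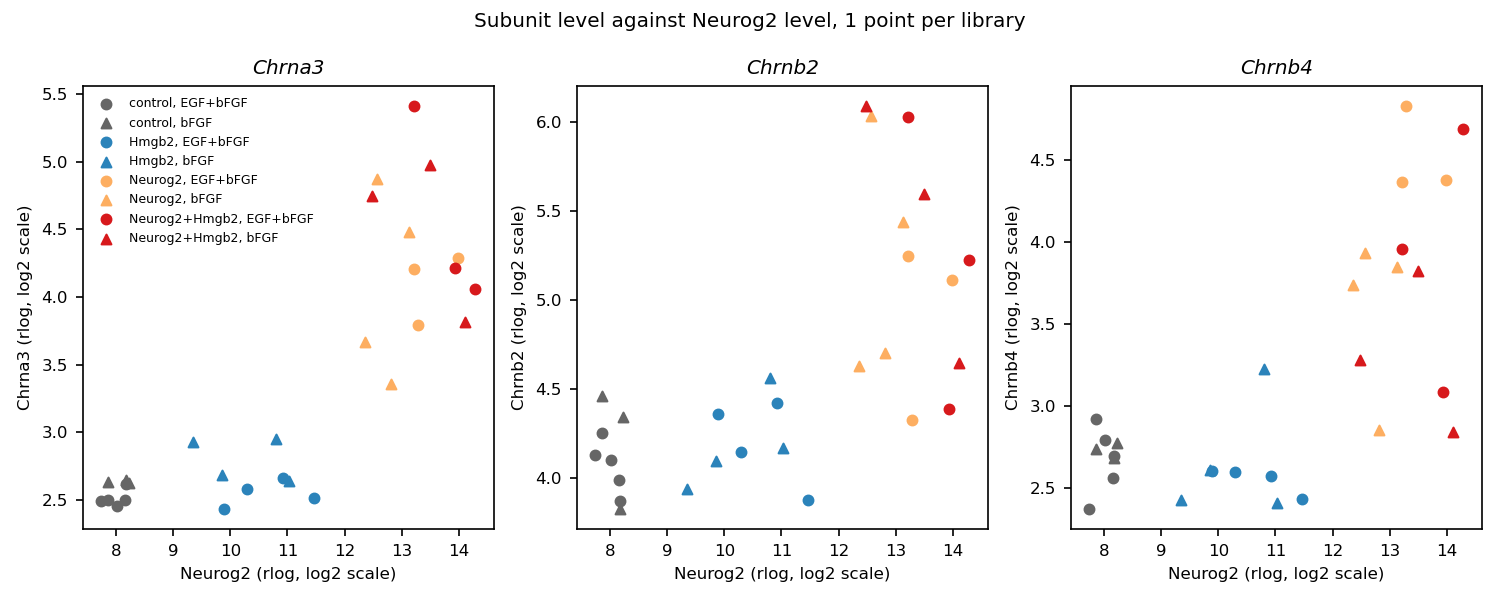
Level of Chrna3, Chrnb2 and Chrnb4 (y axes, rlog) against the level of Neurog2 (x axis, rlog), with 1 point per library, colours for viruses and circles or triangles for EGF + bFGF or bFGF culture. The 8 Hmgb2 libraries have Neurog2 at 9.35 to 11.5 and Chrna3 at 2.43 to 2.95, and the libraries with the Neurog2 virus have Chrna3 at 3.36 or higher.

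Neuronal genes moved along with these subunits. Of 12 neuron markers, 6 were higher and 1 lower in the averaged comparison of viruses with and without Neurog2. Among all tested genes, 8.54% were called higher and 6.74% lower there. Rbfox3, the neuronal splicing factor NeuN, was higher by 2.89 ± 0.25 (limma adjusted p = 2.12e-08), Dcx (doublecortin, a microtubule protein of young neurons) by 2.76 ± 0.29 (5.34e-07), and Tubb3 (neuronal beta-tubulin) by 1.35 ± 0.16 (3.39e-06). Stmn2, a tubulin regulator of growing axons, fell by 0.72 ± 0.20 (0.0151). The mean of the 12 markers lay at 5.77 to 6.07 rlog in the controls of EGF + bFGF culture at 5.99 to 6.74 with Neurog2, which overlapped the controls, and at 6.65 to 7.75 with Neurog2 + Hmgb2. In bFGF culture it lay at 5.88 to 6.02 in controls, 6.08 to 7.73 with Neurog2 and 6.99 to 7.94 with both factors. Microglia markers moved in the same comparison, with 4 of 18 called higher (among them Tyrobp, P2ry12 and Laptm5), 0 lower and 17 of 18 at an unadjusted p under 0.05 in limma. Their mean lay at 5.70 to 6.12 rlog in the controls of bFGF culture, at 5.14 to 8.98 with Neurog2 and at 7.10 to 7.84 with Neurog2 + Hmgb2. In EGF + bFGF culture it lay at 4.56 to 8.68, 4.67 to 7.50 and 5.16 to 8.64 in this order, with all 3 groups overlapping. Of the 9 tested pericyte and smooth muscle markers 4 were lower (Acta2, Tagln, Myh11 and Cnn1) and of 6 tested endothelial markers 2 (Tek and Esam), where 6.74% of all tested genes were called lower. Of 11 tested fibroblast and meningeal markers 1 was higher (Aldh1a2), and of 12 astrocyte markers, 10 oligodendrocyte lineage markers and 3 tested myogenic factors 0 were called. The part of neuron-like cells or of other cell types in the levels of Chrna3, Chrnb2 and Chrnb4 was not tested.

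The genes most like Chrna3 over the 29 libraries were Cntn2 (r = 0.97), Nhlh1 (0.96), Rbfox3 (0.96), Trp53i11 (0.96) and Prmt8 (0.96). Cntn2 encodes an axonal adhesion molecule and Nhlh1 a helix-loop-helix factor of young neurons. For Chrnb2 they were Nol4 (r = 0.96), Srrm4 (0.95), Asic1 (0.95), Rnf165 (0.94) and Cbln4 (0.94), of which Srrm4 regulates neuronal splicing and Asic1 is an acid-sensing channel. For Chrnb4 they were Frrs1l (0.90), Lrrtm1 (0.89), Gm10639 (0.89), Anks1 (0.89) and Igsf3 (0.89), of which Frrs1l assists the assembly of AMPA receptors and Lrrtm1 is a synaptic adhesion molecule. These correlations describe libraries that share the difference between viruses, and carry no p.

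Chrna3 and Chrnb2 also deviated together inside groups. After the mean of each group was removed, their correlation over 29 libraries was 0.80. The corresponding value for Chrna3 and Chrnb4 was 0.38 and for Chrnb2 and Chrnb4 0.47. Chrna4, the partner of Chrnb2 in the main brain receptor, correlated with it at 0.79 inside groups and at 0.46 with groups included. Chrna3 and Chrna5, neighbours on the chromosome, correlated at 0.20 inside groups.

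Chrna4 itself did not differ between viruses by the test in any of the comparisons. In EGF + bFGF culture its control libraries read 6.02, 5.80, 5.18, 5.75 and 6.30, and its Neurog2 libraries 5.28, 5.87 and 6.13. Controls of bFGF culture read 5.86, 5.84 and 6.79, and Neurog2 libraries there 4.99, 5.46, 5.48 and 6.48. All groups overlapped, and the lowest value of all, 4.34, belonged to Hmgb2 replicate 2 of EGF + bFGF culture. The genes most like it were Klhl13 (r = 0.88), Gria2 (0.87), an AMPA receptor subunit gene, Gpr179 (0.87), Brinp2 (0.86) and Ppm1e (0.86).

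Chrna7 ranged from 3.20 to 4.95 rlog. Group means fell between 3.43 ± 0.21 (SD, n = 3, Neurog2 + Hmgb2 in bFGF culture) and 4.20 ± 0.54 (n = 4, Hmgb2 in EGF + bFGF culture). Control libraries of EGF + bFGF culture stood at 3.85, 3.52, 4.13, 4.95 and 4.52 and those of bFGF culture at 4.30, 3.51 and 3.56, so the range of the former covered the latter nearly whole. The difference between them, -0.40 ± 0.30 (SE), was not called (adjusted p = 0.838). Its closest genes were Garem1 (r = 0.89), Sap18 (0.89), Lats2 (0.89), 4930414N06Rik (0.88) and Slf2 (0.88).

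Chrnb1, the beta subunit of the muscle receptor, was among the steadier members, at 5.05 to 6.42 rlog. In bFGF culture controls read 5.98, 5.73 and 6.17, Neurog2 libraries 5.28, 5.12, 6.26 and 5.17, and Neurog2 + Hmgb2 libraries 5.67, 5.20 and 5.19. The difference of the last group from the controls, -0.61 ± 0.33 (SE), did not pass the test (limma adjusted p = 0.369). Its closest genes were Sh3pxd2b (r = 0.93), Plxnd1 (0.88), Lrrc58 (0.88), Exoc3l4 (0.86) and Nln (0.85). Sh3pxd2b encodes a scaffold of podosomes, and Chrnb1 and Chrna7 correlated with each other at 0.57 inside groups.

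Chrna1, the alpha subunit of the muscle receptor, varied far more between libraries than between viruses. In EGF + bFGF culture controls stood at 3.88, 6.75, 6.84, 3.71 and 3.64 rlog, Hmgb2 libraries at 4.58, 8.30, 3.60 and 3.76, Neurog2 libraries at 4.76, 4.85 and 4.47, and Neurog2 + Hmgb2 libraries at 6.39, 9.47 and 5.37. The controls thus fell into 3 low and 2 high libraries, and the Hmgb2 group held 1 library far above the rest.

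In bFGF culture the Chrna1 controls read 3.65, 3.68 and 3.23, Hmgb2 libraries 4.96, 6.97, 3.50 and 3.34, Neurog2 libraries 6.47, 4.59, 4.20 and 3.88, and Neurog2 + Hmgb2 libraries 9.37, 3.76 and 5.42. The range from lowest to highest, 6.24 on the log2 scale, corresponds to 75.3-fold. Its within-group SD of 1.75 was the 21st highest of the 15719 tested genes, whose median was 0.30, and this variation is what Chrna1 was chosen for. Groups with both factors had the highest means, 7.08 ± 2.13 (SD, n = 3) in EGF + bFGF culture and 6.18 ± 2.88 (n = 3) in bFGF culture, with wide spread inside both. In bFGF culture the lowest library with Neurog2 (3.76) lay close to the highest control (3.68), and the Hmgb2 libraries (3.34 to 6.97) overlapped those with Neurog2. Against control there, limma gave adjusted p of 0.838 for Neurog2 and 0.339 for Neurog2 + Hmgb2. With all libraries kept and weighted equally, no comparison called Chrna1. The averaged difference with Neurog2 was 1.13 ± 0.62 (SE, limma adjusted p = 0.238). Without the 9 libraries at one end of the main axis it was 1.20, but these hold most of the high Chrna1 values for which the gene was chosen, so this value is a description without a test.

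The variation of Chrna1 ran along the main axis of within-group deviations. Its deviations correlated with that axis at 0.89, and those of Chrna4, Chrnb4, Chrna7 and Chrnb2 at -0.71, -0.67, -0.58 and -0.56. The values for Chrnb1, Chrna3 and Chrna5 were -0.48, -0.28 and -0.03. Chrna1 exceeded 6 rlog in 8 libraries, and 7 of these were among the 9 at one end of the axis. The median of Chrna1 was 6.84 in these 9 and 3.88 in the other 20, while that of Chrna4 was 5.18 against 6.10. The ends were read from the same values, so these medians describe the axis and test nothing.

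**Figure D4:**
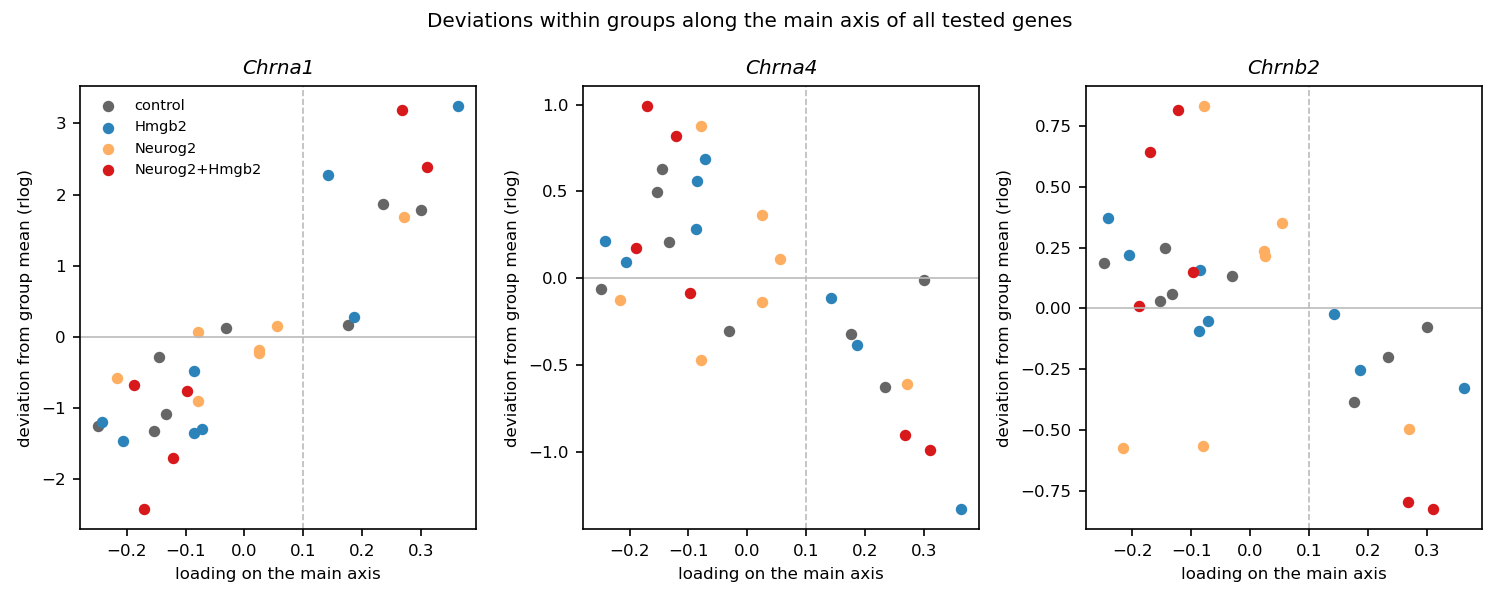
Deviation of Chrna1, Chrna4 and Chrnb2 from the group mean (y axes, rlog) against the loading of each library on the main axis of within-group deviations (x axis, no unit), with 1 point per library coloured by virus and a dashed line at a loading of 0.1. Chrna1 rises along the axis (r = 0.89) while Chrna4 (r = -0.71) and Chrnb2 (r = -0.56) fall.

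Among the genes whose within-group deviations were most like those of Chrna1 were Dctd (r = 0.97), 3300005D01Rik (0.97), Pa2g4 (0.96) and Flt1 (0.96). Dctd is a deaminase of nucleotide synthesis, Pa2g4 a growth regulator and Flt1 a VEGF receptor. With groups included, the closest were Yrdc, Pus1, Trmt1, Dnttip2 and E2f4 (r = 0.93 to 0.94), of which Yrdc, Pus1 and Trmt1 modify transfer RNA. Chrna1os, the antisense gene next to Chrna1 that does not overlap it, stayed at 2.34 to 3.54 rlog.

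Skeletal muscle markers were mixed in level. Of the 16, Des ranged from 2.93 to 6.47 rlog, Acta1 from 2.83 to 6.23 and Ttn from 3.10 to 5.02, whereas Myod1 (-1.87 to -1.73), Myog (-1.46 to -1.24) and Pax7 (-2.26 to -2.23) were low in every library. Myh3 (0.39 ± 0.09, limma adjusted p = 0.00547) and Myh8 (0.20 ± 0.06, 0.0216) were higher with Neurog2 in the averaged comparison, as were 8.54% of all tested genes. The mean of the 16 markers lay at 0.90 to 1.25 rlog in every library, at 1.02 to 1.25 in the 9 libraries of the axis end and at 0.90 to 1.24 in the others, and 6 of the 16 were below 1 in every library (r of its deviations with those of Chrna1 0.51). The mean of the 9 endothelial markers was 2.95 to 3.64 in the former and 2.34 to 3.07 in the latter, and its deviations correlated with those of Chrna1 at 0.89. Flt1, named above, is part of that list and so enters this value. Cldn5, Emcn and Erg, 3 of the 9 endothelial markers, were below 1 in every library. Cdh5 ranged from 5.59 to 9.98 and Esam from 4.70 to 9.80, so the mean does not stand for the list as a whole. Astrocyte markers lay at 9.28 to 10.6 in these 9 libraries and at 10.4 to 11.3 in the others (r with Chrna1 -0.86). The mean of the 18 microglia markers ranged from 4.56 to 8.98 over all libraries (r with Chrna1 0.41). Whether other cells in the culture or a state of the astrocytes accompanied the Chrna1 level was not tested.

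Genes that accompany nicotinic receptors gave a mixed picture in the averaged comparison with Neurog2, where 8.54% of all tested genes were called higher and 6.74% lower. Of the 12 chaperone and assembly genes in the table, 0 were higher and 1, the lectin chaperone Canx, was lower by the test (-0.30 ± 0.07, limma adjusted p = 0.0032). Ric3 and Tmem35a (NACHO), which assist the assembly of Chrna7 receptors, overlapped between viruses, at 5.44 to 7.65 and 7.17 to 9.25 rlog. The median of the 12 was -0.04, near that of all tested genes.

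Of the 8 tested Ly6-type modulators, which bind or resemble proteins that bind nicotinic receptors, 3 rose and 1 fell. The shares of all tested genes in this comparison were 8.54% called higher and 6.74% called lower. Ly6e rose by 1.37 ± 0.19 (SE, limma adjusted p = 2.08e-05), Ly6h by 1.13 ± 0.29 (0.00933) and Lynx1, a brake on nicotinic receptors, by 0.81 ± 0.22 (0.0149), while Ly6c1 fell by 0.65 ± 0.17 (0.0107). Among acetylcholine genes, Bche (butyrylcholinesterase) rose by 0.75 ± 0.18 (0.00483) and the choline transporter-like gene Slc44a2 fell by 0.30 ± 0.10 (0.034). Chat, the enzyme of acetylcholine synthesis, lay between -1.23 and -0.92 rlog in every library, and 4 of the 10 genes of this list were below 1 throughout.

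Of the other cation and glycine Cys-loop receptors, Htr3a, the serotonin-gated subunit, rose by 1.53 ± 0.26 (limma adjusted p = 0.000202), and only Htr3a and Glrb were tested. Of the 9 tested organisers of the neuromuscular junction, Dok7 rose by 0.71 ± 0.18 (0.00983), while Erbb2 (-0.45 ± 0.11, 0.00725) and Utrn (-0.50 ± 0.10, 0.000776) fell, and Rapsn, which clusters the muscle receptor, lay at 2.42 to 3.36 throughout. Of 2 tested muscarinic receptors, 0 were called. Of 11 tested transcription factors linked to nicotinic genes, Insm1 rose by 2.63 ± 0.35 (9.72e-06) and Pou4f1 by 0.41 ± 0.08 (0.00155). In this comparison 8.54% of all tested genes were called higher and 6.74% lower. Of 6 tested autonomic and peripheral neuron markers only Th was called (0.39 ± 0.08, 0.00197). Ireb2, Hykk and Psma4, the genes beyond Chrna5, and Adamts7, Morf4l1 and Ctsh, which lie elsewhere on mouse chromosome 9, were not called (0 of 6).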

How the data were processed

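RNA of sorted astrocytes was measured in 29 libraries of 8 groups. Per the labels and the study's methods, the authors prepared SMART-Seq v4 libraries, which do not mark strand, aligned reads to mm10 with STAR, counted them per gene with HTSeq (version 0.9.1 in the submitters' notes) on GENCODE M25 and transformed the counts with DESeq2 (1.36.0 in those notes, another version in the methods). The deposited values are rlog values on a log2 scale, from -2.35 to 17.2. They hold no counts, so depth and counting error are unknown, and limma replaced a count test.

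Computed here: genes with a mean rlog of at least 1 were tested (15719, with 9520 left out). limma 3.58.1 (R 4.3.3) fitted 1 mean per group with a variance trend (21 residual degrees of freedom), and p-values were adjusted by Benjamini-Hochberg across those genes. Calls needed an adjusted p below 0.05, whatever the fold. The fit was tested on simulated data. Named genes are the members, listed genes that were called or at an extreme, locus neighbours and the 5 closest genes by Pearson correlation. Some genes that this rule names are not reported here. Members and lists were chosen with earlier results of these data known. Alternatives were other filters, scalings, weights, trends, replicate blocks, groups and libraries left out. Promoters came from RefSeq (GRCm38.p6) and coordinates from GENCODE M21, not the M25 of the study. Same-numbered libraries deviated together (every correlation over 0.1) only for Neurog2 + Hmgb2 against Neurog2 in EGF + bFGF culture among the comparisons made; the labels do not say what a number shares.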

Additional observations from a re-analysis of the deposited data

Results flagged for a closer look

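In groups of 4 or 5 libraries, each member was examined for a highest or lowest library that stood apart from the others (32 member and group combinations), and 2 were flagged. Chance flags about 1 in 20 such groups. Chrna3 in control replicate 3 of EGF + bFGF culture was 2.62 rlog, with the nearest other control at 2.50 (gap over range 0.716 against a critical value of 0.710), a difference small against the levels with Neurog2. Chrnb1 in Neurog2 replicate 3 of bFGF culture was 6.26, with the nearest at 5.28 (0.857 against 0.829). The large spread of Chrna1 was not flagged by this measure in any of its 4 groups of this size.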

How the results depend on the processing

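Every alternative gave values. No member's called difference changed sign. Of 1108 member differences under settings other than leaving out a library, 1086 kept their side of the threshold, 6 lost and 16 gained a call. The counts of members called are given as main and alternative values. With a mean rlog of at least 4, which removes Chrna3 and Chrnb4 from the test, 0 were called in the 4 comparisons of Neurog2 or Neurog2 + Hmgb2 with control (2, 2, 1 and 1 in the main fit, of which the counts in EGF + bFGF culture rest on Chrna3 and Chrnb4, chosen on those controls, and are descriptions) and 1 in the averaged comparison with Neurog2 (3). With only the groups of the comparison, 1 was called for Neurog2 + Hmgb2 in EGF + bFGF culture, 0 for Neurog2 in bFGF culture and 0 for Neurog2 + Hmgb2 in bFGF culture. With array weights the counts were 4 for Neurog2 + Hmgb2 in EGF + bFGF culture, 3 for Neurog2 and 5 for Neurog2 + Hmgb2 in bFGF culture, 1 for Neurog2 + Hmgb2 against Neurog2 in bFGF culture (0) and 6 for the averaged comparison. The estimation of these weights stopped before it had converged, so the counts with array weights are uncertain and the members gained (among Chrna1, Chrna5, Chrnb1, Chrnb2 and Chrnb4) are not reported as called. Neurog2 against control in bFGF culture fell to 0 without the filter and without the 9 libraries, and Neurog2 + Hmgb2 against control in EGF + bFGF culture stood at 4 without them, a count that includes Chrna1, whose high libraries were removed. Leaving out 1 library gave 1 to 3 for Neurog2 + Hmgb2 against control in EGF + bFGF culture, 0 to 1 for Neurog2 and 1 to 2 for Neurog2 + Hmgb2 against control in bFGF culture. The causes were not tested, apart from the genes or samples that an alternative removes. Other scalings moved the median of all genes by less than 0.1.

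Replicate numbers did not pair the libraries in general: of 90 pairs with the same number, 48 had deviations correlated over 0.1 (range -0.657 to 0.808), and in 4 of 28 pairs of groups every same-numbered pair did. Of the comparisons made, this held for Neurog2 + Hmgb2 against Neurog2 in EGF + bFGF culture, where 0 members were called with or without either block. A replicate block left the counts at 2, 2, 1 and 1, and a block within each culture changed Neurog2 against control in bFGF culture to 0. The averaged comparison gave 3 with either block.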
